A study of Mus musculus with 6 samples.

Results

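Eph receptors are the largest family of receptor tyrosine kinases, and ephrins are their ligands, which stay attached to the surface of the cell that makes them. The 10 genes described here encode 6 of the receptors (Epha2, Epha4, Epha5, Ephb2, Ephb3 and Ephb4) and 4 of the ephrins (Efna1, Efna5, Efnb1 and Efnb2). They were taken by name from the 34981 genes of the table, and each of the 10 had a row. The cells were B16F10, a mouse melanoma line of C57BL/6 origin. They were seeded at 500 cells in 50 µl of Matrigel, a basement membrane extract at 7 mg/ml, and grew as spheroids. In the first group the medium held BMP2, a secreted ligand of the TGF-beta superfamily, at 100 ng/ml for 10 days, and in the second it held PBS for the same time. Each group has 3 libraries, and each of the 3 batches is a repeat of the experiment with 1 library of either group. All libraries come from 1 cell line with no other genotype, so host cells are not part of the model. The comparison asks how expression of this guidance and adhesion family differs when BMP2 is present.

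Binding between an Eph receptor on one cell and an ephrin on its neighbour signals into both cells, forward through the receptor's kinase and in reverse through the ephrin. EphA receptors bind mainly ephrin-A ligands, which are held in the membrane by a lipid anchor, and EphB receptors bind mainly ephrin-B ligands, which cross the membrane. Contact often leads to repulsion or sorting of cells, as in the guidance of axons and of migrating neural crest cells, the lineage from which melanocytes arise. In melanoma EPHA2 is known as a receptor that supports growth and invasion.

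Libraries held 27821947 to 36856384 estimated counts, and the library PBS 1 stood apart from the rest on the first principal component (-79.7 against -16.8 to 55.5). The 7 melanocyte markers checked were all expressed, with a summed level of 23700 to 26300 CPM (the CPM unit is a count scaled to library size, adjusted by trimmed mean of M values) with PBS and 28900 to 39100 CPM with BMP2. These ranges do not overlap, and the part of this difference in the results was not tested. Summed markers of fibroblasts reached at most 8.52 CPM, of endothelium 2.16, of leukocytes 5.96 and of epithelium 0.787. Of these markers, Cdh5, Tek, Cldn5 and Adgre1 were at 0 in all libraries. Others passed the filter on low counts. Their highest values were 7.32 CPM for Pdgfra, 4.91 for Cd68, 2.81 for Lyz2, 2.02 for Pecam1, 1.8 for Col1a1 and 0.759 for Cdh1. In each batch Pdgfra and Cd68 were lower with BMP2 and Lyz2 was higher, and the source of these transcripts was not tested. BMP2 libraries had 227 to 839 CPM summed over 5 BMP response genes, against 48.2 to 92.4 with PBS. Most of this sum was Id2, at 186, 438 and 717 CPM with BMP2 and 32.7, 79.9 and 65.7 with PBS. Id1, Id3 and Smad6 were also higher with BMP2 in each batch, with no overlap between groups. Smad7 overlapped, at 4.52, 19.8 and 7.84 CPM with BMP2 and 6.02, 5.85 and 4.22 with PBS, and was lower with BMP2 in batch 1. Over all genes tested, the median log2 fold change (BMP2 minus PBS) was 0.01.

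No listed gene passed the threshold of 0.05 after Benjamini-Hochberg adjustment over the 12929 genes tested with edgeR. Of the 10 genes, 9 passed the filter on low counts and were tested, while Ephb3 did not. With treatment alone in the model 0 of 9 were called, against 0.0464% of all tested genes. With batch as a block 0 of 9 were called, against 0.735%, and with the Wald test of DESeq2 0 of 9, against 1.03%. The edgeR fit with treatment alone also left BMP response genes uncalled. Id1, Id2, Id3 and Smad6 had log2 fold changes of 3.28, 2.91, 3.8 and 3.76 there. Their edgeR adjusted p was 0.33, 0.21, 0.297 and 0.181. With the block Id2 was called (edgeR adjusted p 0.0152), while Id1, Id3 and Smad6 were not. DESeq2 called each of these genes. A listed gene that was not called is thus not shown to be unchanged. Without adjustment, 1 of the 9 listed genes had p under 0.05 with edgeR against 5.38% of all genes. With the block it was 2 of 9 against 17.0%, and with DESeq2 2 of 9 against 6.8%. Of all 12929 tested genes, 6319 had a fitted log2 fold change below 0. Among the listed genes it was below 0 for 7 and above 0 for 2 (Epha4 and Efnb2), with a median of -0.51. Without PBS 1 there were again 7 below 0 and 0 called, with a median of -0.62. The medians in batches 1, 2 and 3, on log2(CPM + 0.5), were -0.04, -0.43 and -0.32. In counts of libraries, 3 of the 9 genes (Epha2, Efna5 and Efnb1) had every BMP2 library below every PBS library, against 5.72% of all tested genes, and 1 (Epha4) had every BMP2 library above, against 6.42%. Lower values with BMP2 in all 3 batches were found for 5 of 9 (21.1% of all genes), and higher values in all 3 for 1 of 9 (22.7%). In bulk RNA, fewer cells with a transcript and less transcript per cell cannot be told apart.

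**Figure D1:**
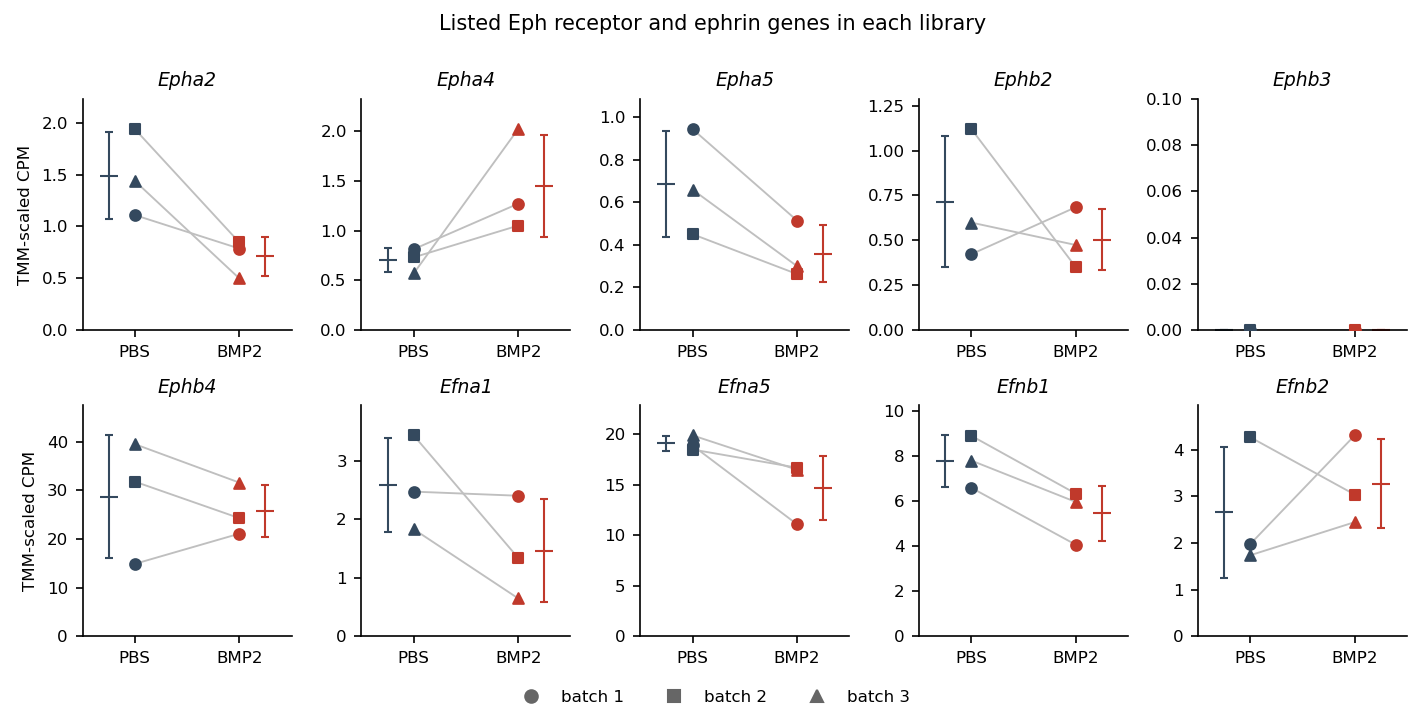
TMM-scaled CPM of the 10 listed genes in each library, with symbols for batches, grey lines joining the 2 libraries of a batch, and bars for the mean ± SD of 3 libraries. Epha2, Efna5 and Efnb1 have no overlap between groups and lie lower with BMP2, Epha4 has none and lies higher, and Ephb3 is at 0 throughout.

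Epha2 and Epha4, both receptors of the A class, lay on opposite sides. Epha2 (ENSMUSG00000006445, GRCm38 chromosome 4, 141301240 to 141329384) was at 1.11, 1.94 and 1.44 CPM in PBS libraries 1, 2 and 3 and at 0.787, 0.847 and 0.499 CPM with BMP2. The highest BMP2 library was thus below the lowest PBS library. Its log2 fold change was -1.07 (SE 0.46, 95% interval -2.12 to -0.02), with an edgeR p of 0.0466 before adjustment and 0.883 after it, or 0.275 with the block. These levels rest on 20 to 69 estimated counts per library. Epha4 (ENSMUSG00000026235, chromosome 1, 77367185 to 77515088) encodes a receptor unusual in binding ephrins of both classes. It was at 0.813, 0.731 and 0.569 CPM with PBS and at 1.27, 1.05 and 2.02 CPM with BMP2, on 19 to 81 counts. All BMP2 libraries were above all PBS libraries, and the difference was smallest in batch 2, at 0.33 on log2(CPM + 0.5), and largest in batch 3, at 1.24. The fitted log2 fold change was 1.04 (SE 0.46, interval -0.01 to 2.09), with edgeR adjusted p of 0.883, or 0.32 with the block.

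The ratio of Epha4 to Epha2, each per kilobase of its longest transcript, needs no scaling between libraries. It was 0.455, 0.233 and 0.245 in PBS libraries 1, 2 and 3, and 0.995, 0.768 and 2.5 with BMP2. Each gene alone had no overlap, in opposite directions, so the groups could not overlap in this ratio. The pair was chosen after the values were seen, and the ratio is given as a description with no test.

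Promoter windows of these 2 genes are shown since they had opposite differences, with Epha3, the most abundant gene of the family, for comparison. Each window is the 250 bases before the RefSeq start on GRCm38.p6, read in the direction of transcription. Capitals mark CAGAC or its reverse complement GTCTG, the core to which SMAD proteins bind, and GGCGCC, a GC-rich motif of BMP-activated SMADs that reads the same on both strands. Marked motifs do not overlap one another.
Epha2, chr4:141300971-141301220, plus strand: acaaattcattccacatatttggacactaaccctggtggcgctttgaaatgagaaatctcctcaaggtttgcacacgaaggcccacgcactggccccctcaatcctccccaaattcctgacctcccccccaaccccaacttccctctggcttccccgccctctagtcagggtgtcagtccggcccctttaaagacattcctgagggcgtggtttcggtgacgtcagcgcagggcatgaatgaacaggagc
Epha4, chr1:77515089-77515338, minus strand: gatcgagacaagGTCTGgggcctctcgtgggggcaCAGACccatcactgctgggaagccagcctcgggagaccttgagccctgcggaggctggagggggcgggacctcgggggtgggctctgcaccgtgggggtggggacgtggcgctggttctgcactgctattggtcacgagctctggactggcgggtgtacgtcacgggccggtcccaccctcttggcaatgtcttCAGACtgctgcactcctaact
Epha3, chr16:63864176-63864425, minus strand: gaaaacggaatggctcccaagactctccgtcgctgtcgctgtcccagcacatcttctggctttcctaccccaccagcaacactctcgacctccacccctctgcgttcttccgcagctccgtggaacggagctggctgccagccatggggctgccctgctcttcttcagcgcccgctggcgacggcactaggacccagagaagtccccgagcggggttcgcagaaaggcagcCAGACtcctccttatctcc
The Epha4 window held 3 matches to CAGAC or GTCTG, that of Epha3 held 1, and that of Epha2 held 0. At least 1 such match occurs in 42.2% of all 32851 RefSeq windows of this length, and the share with 3 was not counted. Efna3, a further family gene with lower values with BMP2, had 4 matches in 1 window and 0 in another. Whether matches go with the direction of a difference was not tested. All 10 listed genes had a window, with 11 windows in all since Efna1 had 2. Genes were counted if any window matched, while the shares of all windows are per window. Of the 10 genes, 5 had at least 1 match to CAGAC or GTCTG (Epha4, Ephb3, Efna1, Efnb1 and Efnb2). GGCGCC occurred for 3 genes (Ephb4, Efnb2, and Efna1 in 1 of its 2 windows), beside 9.59% of all windows, and not in the 3 windows printed. A match is a string of letters and was not tested for binding.

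Epha5, a receptor best known from axon guidance (chromosome 5, 84054761 to 84417382), was near the limit of counting. It was at 0.943, 0.45 and 0.659 CPM with PBS and at 0.514, 0.263 and 0.3 CPM with BMP2. Within each batch the BMP2 library was lower, but the groups overlapped, as BMP2 1 lay above PBS 2. BMP2 2 had only 9 counts, and its 95% exact Poisson interval of 0.12 to 0.499 CPM, which covers counting error only, reaches past the level of PBS 2. The log2 fold change was -0.93 (SE 0.53, interval -2.15 to 0.29), with edgeR adjusted p of 0.883, or 0.343 with the block.

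Among the B-class receptors, Ephb4 was the most abundant of the 10 genes in CPM, and its groups overlapped. Ephb4 (ENSMUSG00000029710, chromosome 5, 137350109 to 137378669) is the partner of ephrin-B2 in the separation of arteries and veins. It was at 14.9, 31.8 and 39.5 CPM with PBS and at 21.1, 24.3 and 31.6 CPM with BMP2. The BMP2 library was the higher one in batch 1 and the lower one in batches 2 and 3. Its log2 fold change of -0.16 (SE 0.35, interval -0.98 to 0.66) became -0.48 without PBS 1 and 0.14 without PBS 3, so no direction can be given (edgeR adjusted p 0.945).

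Ephb2, a receptor with roles in neurons and in the sorting of gut epithelium (chromosome 4, 136647539 to 136835988), was at 0.423, 1.12 and 0.599 CPM with PBS and at 0.685, 0.35 and 0.474 CPM with BMP2. The spread within either group was as wide as the difference between them. The log2 fold change of -0.51 (SE 0.55, edgeR adjusted p 0.892) was -0.03 without PBS 2. Ephb3, which acts beside Ephb2 in the gut, had 0 estimated counts in every library. A count of 0 allows up to 0.0749 to 0.103 CPM, depending on the library, when 3 counts are taken as the limit.

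Both ephrin-A genes in the list had lower values with BMP2 in each batch. Efna5 (ENSMUSG00000048915, chromosome 17, 62604184 to 62881317), a ligand of EphA receptors that can also bind EphB2, was at 18.9, 18.5 and 19.9 CPM with PBS. With BMP2 it was at 11.1, 16.7 and 16.5 CPM. The PBS libraries lay close together (19.1 ± 0.735 CPM, SD, n = 3), and all BMP2 libraries lay below them, with BMP2 1 farthest (14.7 ± 3.19). The log2 fold change was -0.37 (SE 0.23, interval -0.9 to 0.15) and became -0.2 without BMP2 1 (edgeR adjusted p 0.883 over all libraries, or 0.332 with the block). Counts of 323 to 666 stood behind each of these values.

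Efna1 (ENSMUSG00000027954, chromosome 3, 89271733 to 89281142) encodes a high-affinity ligand of EphA2. Its level was 2.47, 3.43 and 1.83 CPM with PBS and 2.4, 1.34 and 0.649 CPM with BMP2. In batch 1 the libraries were nearly equal, and in batches 2 and 3 the BMP2 library was lower by 1.09 and 1.02 on log2(CPM + 0.5). Groups overlapped, and the log2 fold change was -0.82 (SE 0.54, edgeR adjusted p 0.883, or 0.302 with the block). Without BMP2 1 it was -1.37 and without BMP2 3 -0.47. The ratio of Efna1 to Epha2 per kilobase was 3.05 to 5.36 with PBS and 3.12 to 7.3 with BMP2, so this ligand and its receptor kept overlapping ratios.

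Of the ephrin-B genes, Efnb1 had no overlap between groups and Efnb2 had a wide one. Efnb1 (ENSMUSG00000031217, X chromosome, 99136130 to 99148991) encodes a ligand needed for cell sorting in the neural crest and skull. It was at 6.6, 8.91 and 7.81 CPM with PBS and at 4.07, 6.34 and 5.97 CPM with BMP2, on 119 to 317 counts. The differences in batches 1, 2 and 3 were -0.64, -0.46 and -0.36 on log2(CPM + 0.5), the most even among the 4 listed genes without overlap. Its log2 fold change was -0.51 (SE 0.29, interval -1.17 to 0.15), or -0.52 (SE 0.21, interval -1.02 to -0.03) with the block. The edgeR p with the block was 0.0409 before adjustment and 0.278 after it. Efnb2 (chromosome 8, 8617434 to 8661242), the arterial ligand of Ephb4, was at 1.98, 4.27 and 1.74 CPM with PBS and at 4.31, 3.04 and 2.45 CPM with BMP2. Here 1 PBS library was level with the highest BMP2 library, and the log2 fold change was 0.29 (SE 0.46, edgeR adjusted p 0.916). It ranged from 0.04 without BMP2 1 to 0.81 without PBS 2.

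Levels of different genes were compared per kilobase of the longest annotated transcript. Over all libraries the listed genes came in the order Ephb4 (mean 6.26 CPM per kilobase), Efna5 (4.2), Efnb1 (2.03), Efna1 (1.24), Efnb2 (0.619), Epha2 (0.282), Epha4 (0.17), Epha5 (0.0711), Ephb2 (0.0559) and Ephb3 (0). Ranges over the 6 libraries overlapped between all neighbours in this order except Efna5 with Efnb1, and Ephb2 with Ephb3. Those of Ephb4 (3.43 to 9.09) and Efna5 (2.74 to 4.95) overlapped, while Efnb1 (1.25 to 2.73) ended just under the lowest library of Efna5. The 3 genes at the top were clear of Epha2, which reached at most 0.496. The summed level of the 10 genes was 12.6, 18.4 and 18.5 CPM per kilobase with PBS and 11.8, 13.6 and 14.6 with BMP2.

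The family has 12 further genes, and 1 of them outweighed all the listed receptors. Epha3 (ENSMUSG00000052504, chromosome 16, 63543534 to 63864175), an EphA receptor whose preferred ligand is ephrin-A5, was at 269, 266 and 228 CPM with PBS and at 155, 101 and 55.1 CPM with BMP2. Every BMP2 library was below every PBS library, and the PBS libraries were close together. The differences in batches 1, 2 and 3 were -0.79, -1.39 and -2.04 on log2(CPM + 0.5). Its log2 fold change was -1.29 (SE 0.35, interval -2.09 to -0.49), and -1.41 (SE 0.24) with the block. The edgeR adjusted p was 0.548, or 0.0654 with the block, so it was not called, while the DESeq2 Wald test called it at an adjusted p of 0.0423. With the block, leaving out batch 1, 2 or 3 gave edgeR adjusted p of 0.00495, 0.222 and 0.017. These 3 fits were added after the data were seen. They called 531, 27 and 218 genes of the whole table, against 95 with all batches.

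Per kilobase, Epha3 made up 88.9%, 82.1% and 77% of the summed receptor level in PBS libraries 1, 2 and 3. With BMP2 its share was 77.2%, 68.2% and 46.5%, so BMP2 1 lay just inside the range of the PBS libraries. The 14 receptors together were at 54.3 ± 2.53 CPM per kilobase with PBS and 27.5 ± 7.34 with BMP2 (SD, n = 3). The 8 other EphA receptors, without Epha3, were at 1.92 ± 0.255 and 1.7 ± 0.312. The 5 EphB receptors were at 7.48 ± 3.38 and 7.5 ± 2.04. The 5 ephrin-A genes were at 10.5 ± 0.755 with PBS and 7.76 ± 1.09 with BMP2, and the 3 ephrin-B genes at 2.99 ± 0.638 and 2.45 ± 0.158. The gap between groups in the receptor sum thus lay in Epha3.

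**Figure D2:**
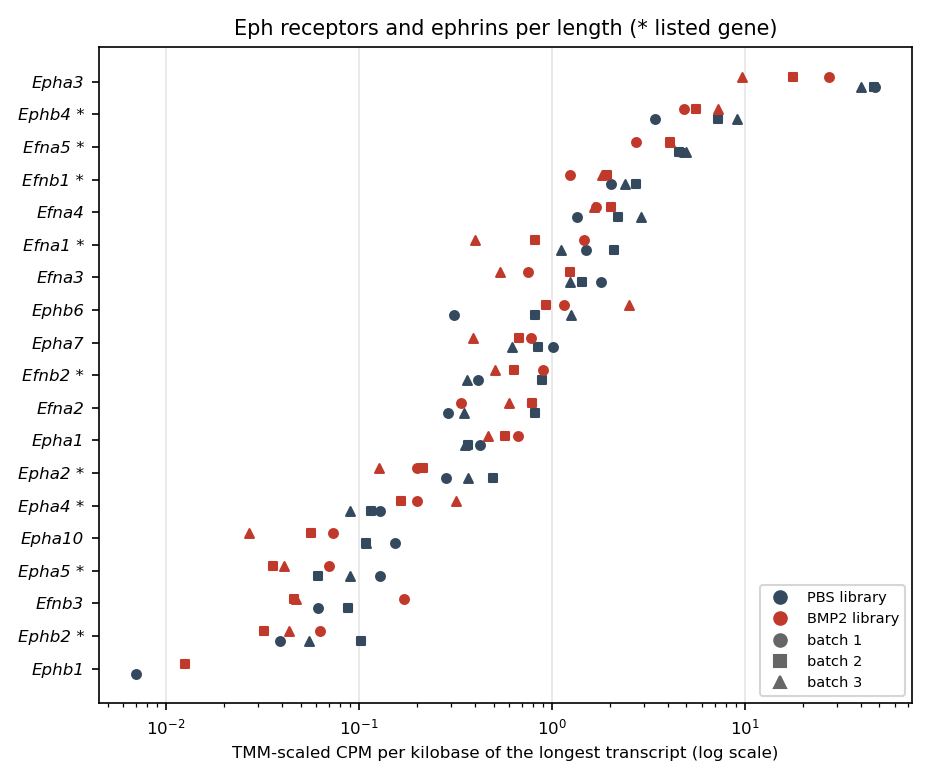
Level of each family gene per library, as TMM-scaled CPM per kilobase of the longest transcript on a log axis, with colours for groups, symbols for batches and a star for listed genes. Values of 0 cannot be drawn, so Epha6, Epha8 and Ephb3 are absent and Ephb1 and Efnb3 lack some points. Epha3 lies above all other genes, with BMP2 libraries at 9.73 to 27.4 and PBS libraries at 40.3 to 47.5.

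Of the other 12 genes, 8 passed the filter on low counts. With edgeR 0 of 8 were called, against 0.0464% of all tested genes, and with the block 0 of 8, against 0.735%. DESeq2 called 1 of 8 (Epha3), against 1.03%. Before adjustment, 1 of 8 had p under 0.05 with edgeR against 5.38% of all genes. With the block it was 4 of 8 against 17.0%, and with DESeq2 1 of 8 against 6.8%. Epha6 and Epha8 had 0 counts in all libraries, Ephb1 had 2 counts with BMP2 and 1 with PBS, and Efnb3 had 27 and 16. Epha7, a receptor of the nervous system, was at 5.59 ± 1.31 CPM with PBS and 4.16 ± 1.36 with BMP2 (SD, n = 3). Epha10, which lacks kinase activity, had values of 0.506 to 0.716 CPM with PBS and 0.125 to 0.342 with BMP2, with no overlap (log2 fold change -1.25, SE 0.55). Epha1 was the reverse, at 1.17 to 1.4 CPM with PBS and 1.52 to 2.19 with BMP2 (0.56, SE 0.38). Ephb6, another receptor without kinase activity, was higher with BMP2 in each batch, at 5.78 ± 3.21 against 3 ± 1.78 CPM. Its log2 fold change was 0.95 (SE 0.57) and became 0.56 without PBS 1 and 0.39 without BMP2 3. Efna2 was at 1.04 ± 0.615 with PBS and 1.23 ± 0.489 with BMP2.

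Efna1, Efna3 and Efna4 lie side by side on chromosome 3, all on the minus strand, within 66.3 kb (89271733 to 89338028). Efna3 was at 4.26, 3.37 and 2.96 CPM with PBS and at 1.78, 2.92 and 1.27 CPM with BMP2, and its groups did not overlap (log2 fold change -0.83, SE 0.41). Efna4 was at 2.18, 3.54 and 4.67 CPM with PBS and at 2.7, 3.24 and 2.65 CPM with BMP2, and its groups did overlap (-0.27, SE 0.38). The edgeR adjusted p was 0.883 for Efna3 and 0.903 for Efna4. Of the transcript 31-mers of Efna3, 10.5% occur in other genes, and of Efna4 8.8%, while Efna1 shares 0%. For all listed genes the share was at most 1.88%, so division of reads with other genes can touch Efna3 and Efna4, and Epha1 (8.4%), more than the listed genes.

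**Figure D3:**
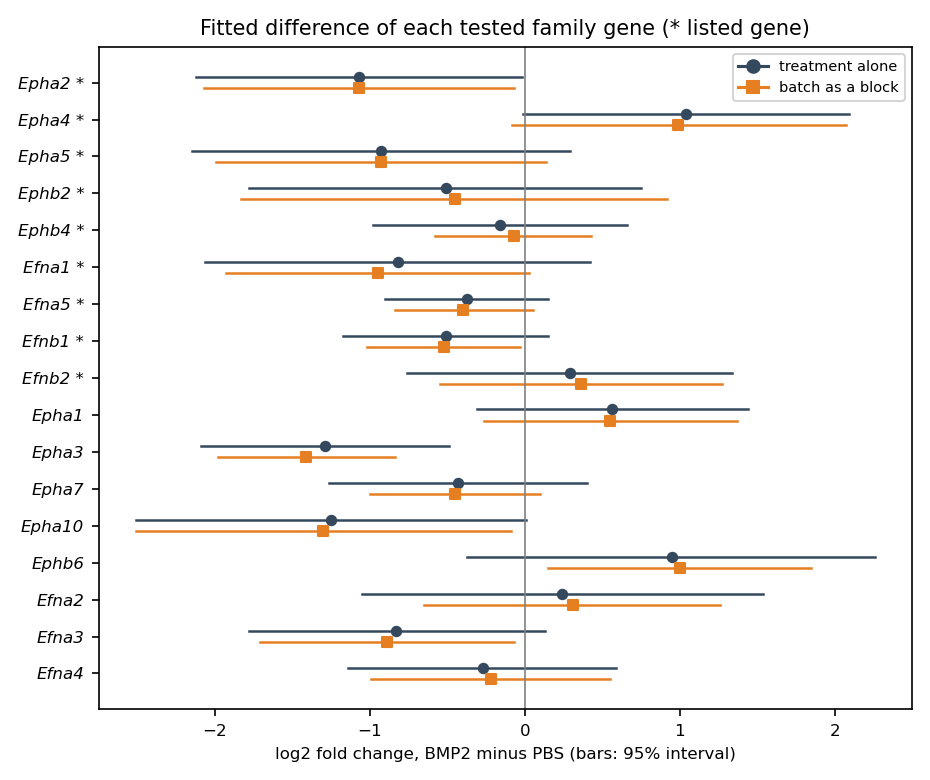
Log2 fold change (BMP2 minus PBS) and its 95% interval for the 17 family genes tested, with treatment alone in the edgeR model or with batch as a block. Of the intervals with treatment alone, those of Epha2 and Epha3 lie wholly below 0. With the block, those of Epha2, Efnb1, Epha3, Epha10 and Efna3 lie wholly below 0 and that of Ephb6 wholly above. The intervals are not adjusted for the number of genes. Stars mark listed genes.

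Signalling partners of Eph receptors and ephrins were read from a list of 53 genes, of which 43 were tested. With treatment alone 0 of 43 were called by edgeR, against 0.0464% of all tested genes, and 2 of 43 had p under 0.05 before adjustment, against 5.38%. With the block 1 of 43 was called, against 0.735%, and by DESeq2 1 of 43, against 1.03%. The gene called with the block and by DESeq2 was Chn2, which encodes beta-chimaerin, a GTPase-activating protein for Rac. Chn2 rose from 13.8, 18 and 20.7 CPM in the PBS libraries to 33.4, 55.5 and 50.7 CPM with BMP2, a log2 fold change of 1.4 (SE 0.15) with the block. The edgeR adjusted p was 0.0244 with the block, 0.214 without it and 0.151 with the block and without batch 2, and that of DESeq2 was 0.000563. Its relative Chn1, which encodes alpha-chimaerin, an effector of EphA4 in neurons, had 20.2 ± 1.86 CPM with BMP2 and 17 ± 3.72 with PBS, a log2 fold change of 0.25 (SE 0.23) that was 0.42 without PBS 1 and 0.12 without PBS 2. Across the list the median log2 fold change was -0.03, with 25 genes below 0 and 18 above. Among all tested genes 6319 were below 0 and 6610 above. For 4 of the roles in the list, the medians were -0.18 for 6 kinases, 0.02 for 11 adaptors, -0.03 for 5 partners of ephrin-B and 0 for 7 proteases and phosphatases.

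Over all 3 batches, 0 of 6 kinases and 0 of 11 adaptors tested were called by edgeR, with or without the block, or by DESeq2. Before adjustment, 0 kinases and 1 adaptor had p under 0.05 with edgeR and with DESeq2, and 1 kinase and 2 adaptors with the block. The shares of all tested genes were 5.38% with edgeR, 6.8% with DESeq2 and 17.0% with the block. Fyn and Src, kinases of the Src family, had log2 fold changes of 0.19 (SE 0.27) and -0.29 (SE 0.25). That of Src was -0.49 without PBS 1 and -0.1 without PBS 2. Nck1 and Nck2, adaptors that link receptors and ephrin-B to actin, were at -0.11 (SE 0.25) and -0.04 (SE 0.35), and Inppl1, the lipid phosphatase SHIP2, at 0.04 (SE 0.17). None of these 5 was called in either edgeR fit (adjusted p 0.335 to 0.972 with the block). Of the other adaptors, 2 with larger differences were chosen after their values were seen. Shc1, an adaptor of receptor tyrosine kinases, was at 130, 172 and 150 CPM with PBS and at 110, 82.7 and 94.9 CPM with BMP2, with no overlap. Its fitted difference of -0.65 (SE 0.2) had an edgeR p of 0.0106 before adjustment and 0.687 after it, or 0.171 with the block, and a DESeq2 adjusted p of 0.161. Sh2d3c overlapped between groups, at 0.71 (SE 0.43, edgeR adjusted p 0.883, or 0.26 with the block).

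Sdcbp, whose product syntenin binds the tail of ephrin-B, was at 355 ± 54.4 CPM with BMP2 and 334 ± 40.1 with PBS, and Ptpn1, a phosphatase that acts on Eph receptors, at 37.3 ± 5.94 and 35.7 ± 2.91 (SD, n = 3). Adam10 encodes a protease that cleaves ephrins and Eph receptors. It was at 49.4, 153 and 160 CPM with PBS and at 147, 299 and 228 CPM with BMP2, higher in each batch, though BMP2 1 lay below PBS 2 and PBS 3. Its log2 fold change was 0.89 (SE 0.45), or 1.01 (SE 0.21) with the block, and 0.51 without PBS 1. Adam10 was not called over all batches (edgeR adjusted p 0.883, or 0.107 with the block). With the block and without batch 1, 2 or 3 its edgeR adjusted p was 0.0356, 0.312 and 0.0034. Those fits were added after the data were seen and called 531, 27 and 218 genes of the whole table.

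**Figure D4:**
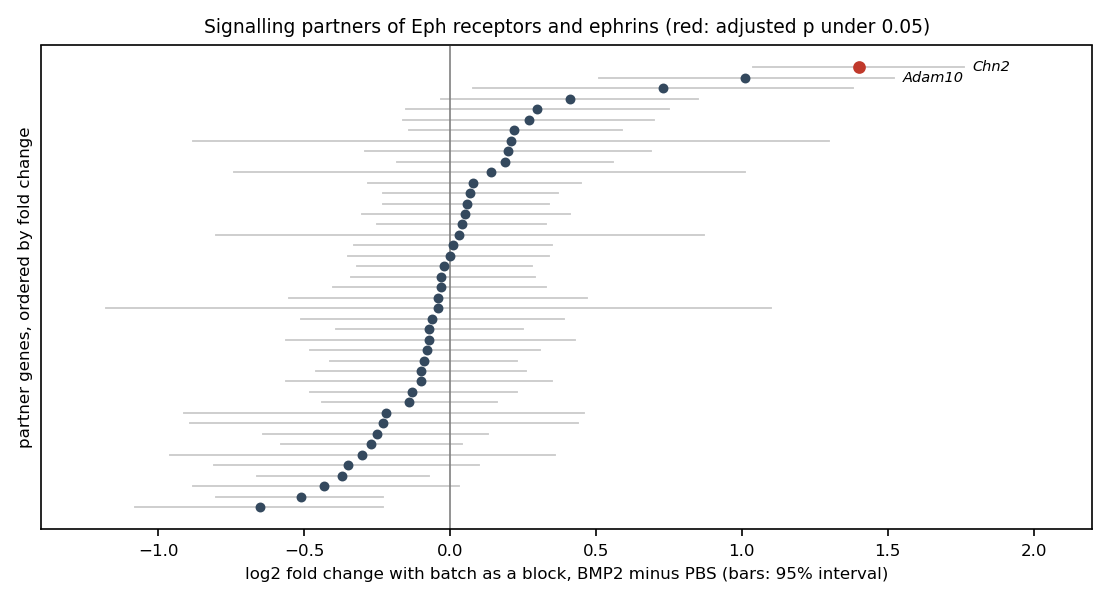
Log2 fold change with batch as a block (BMP2 minus PBS, bars for 95% intervals) for the 43 partner genes tested, ordered by fold change. Chn2 is the gene called (red, adjusted p under 0.05), and Adam10 is labelled as the other gene with a value above 1.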

How the data were processed

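RNA from 6 spheroid cultures was sequenced from TruSeq libraries made with 500 ng of total RNA, per the labels' protocols. The authors deposited estimated counts per Ensembl gene, made with kallisto 0.44.0 for the mouse build GRCm38.p6 (tool and build per the submitters' processing notes). How transcripts were combined into genes, and with which annotation release, was not given in the sources used here. No value above 0 is whole, yet 72.4% of 12603 low values of genes with 1 annotated transcript lie within 0.1 of a whole number, so the values carry a small further scaling of unknown kind. Counts were rounded. Symbols, positions and lengths came from GENCODE M21 (GRCm38), which matched 34679 of 34981 identifiers.

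All 6 libraries entered an edgeR 4.0.16 quasi-likelihood fit (R 4.3.3), with the default filter on low counts, TMM scaling and treatment alone in the model (4 residual degrees of freedom). P-values were adjusted over all genes tested. The SE comes from the fold change and F statistic, and the interval from the SE. The labels say that a replicate number marks a shared batch, and deviations from group means correlated at 0.51, 0.25 and 0.52 across genes within batches 1, 2 and 3. A fit with batch as a block (2 residual degrees of freedom) was therefore made too. Alternatives were the size factors and Wald test of DESeq2 1.42.0, quantile scaling with limma 3.58.1, other filters and leaving out each library. Leaving out a batch was added after the data were seen. The edgeR steps were run on simulated counts with the same dispersion for all genes, no batch effect, and changes only in well counted genes. That run checks the code and does not show how the fits perform on these libraries.

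The listed genes, the other family genes, the 53 partners and the markers were chosen with earlier results of these data known. By rule, all 10 listed genes were described, other family genes where tested, 10 partners in any case (1 of them, with 1 role of the list, is not reported here), and others where called. Epha3 was singled out for its level after its values were seen. Of 5 epithelial markers, 4 were analysed here.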

Additional observations from a re-analysis of the deposited data

How the results depend on the processing

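The count of called listed genes was 0 under each alternative run. With the replicate block, 95 genes of the whole table were called against 6 without it. No filter gave 35 and the DESeq2 Wald test 130. Leaving out 1 library gave 2 to 10, and the block without batch 1, 2 or 3 gave 531, 27 and 218, with fewer residual degrees of freedom. These fits without a batch were chosen after the data were seen. Called partners were 1 with the block, 1 with DESeq2, 3 and 2 with the block without batch 1 or 3, and 0 otherwise. The block changed the call of Chn2 alone among the genes named. By union of exons 8 listed genes kept their place in the order of levels, and by coding length 6, where Efna5 came before Ephb4. DESeq2 size factors and quantile scaling left 7 of 9 listed genes below 0, and the stricter filter of 100 counts left 3 tested.

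Signs turned for genes that were not called, and the cause was not tested. With 1 library left out, values ran from -0.48 to 0.14 for Ephb4, -0.07 to 0.85 for Efna2, -0.53 to 0.0033 for Efna4, -0.04 to 0.37 for Fyn, -0.27 to 0.11 for Nck1, -0.33 to 0.34 for Nck2, -0.04 to 0.09 for Inppl1, -0.05 to 0.17 for Sdcbp and -0.04 to 0.19 for Ptpn1. Nck2 was at 0.03 with the block. With the block and without batch 1, Efnb2 was at -0.03. Without batch 2, Ephb2 was at 0.17, Ephb4 at 0.09, Nck2 at 0.1 and Ptpn1 at -0.04. Without batch 3, Ephb4 was at 0.06, Efna4 at 0.09, Nck2 at 0.49, Inppl1 at -0.02 and Sdcbp at -0.02. Epha2, Epha4, Epha5 and Ephb2, each under 100 counts in every library, have 95% intervals over 2 log2 units wide with treatment alone. So do Efna1 (-2.06 to 0.42) and Efnb2 (-0.76 to 1.34), which reached 122 and 152 counts.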

Other observations

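Around the 3 ephrin-A genes on chromosome 3, 17 other genes within 100 kb of them were tested, a window chosen after the values were seen. Between groups, 2 of the 17 had no overlap and were lower with BMP2, against 5.72% of all tested genes. Adam15, which encodes a membrane protein with a metalloprotease and an integrin-binding domain, was at 42.5, 27.3 and 32.9 CPM with PBS and at 18.1, 18.4 and 17.5 CPM with BMP2. The log2 fold change of Adam15 was -0.93 (SE 0.22), with an edgeR adjusted p of 0.387, or 0.0901 with the block, and was called by DESeq2 at an adjusted p of 0.0152. The 3 BMP2 libraries lay closer together (18 ± 0.46 CPM, SD) than the PBS libraries (34.2 ± 7.69). Shc1, also in the list of partners, was at 95.9 ± 13.7 CPM with BMP2 and 151 ± 21.3 with PBS (n = 3; log2 fold change -0.65, SE 0.2). Its edgeR adjusted p was 0.687, or 0.171 with the block. Slc50a1, a sugar transporter gene, was the 1 of 17 with no overlap and higher values with BMP2, against 6.42% of all tested genes (log2 fold change 0.21, SE 0.18). The 14 other neighbours overlapped between groups, among them Zbtb7b and Muc1.

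The ratio of Efnb2, the ephrin-B ligand, to Ephb4, its receptor, per kilobase was 0.121, 0.122 and 0.0398 with PBS and 0.185, 0.113 and 0.0701 with BMP2. These groups overlapped.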
